A study of Homo sapiens with 6 samples.

Results

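The 40 genes described here encode the junctions that hold epithelial cells together, with EPCAM and the splicing regulators ESRP1 and ESRP2, and were taken as a fixed list of symbols matched to the rows of the count tables. Of the 40 symbols, 39 were among the 56638 listed symbols, and 38 had enough reads to be tested beside 15242 genes in all. AFDN was not listed under that symbol, and GJB1 had a single read over all libraries. Total RNA had been sequenced from cells of DLD-1, which is a human colorectal cancer line in wide use, at passage 16-19. Controls had received a control siRNA, and the other group an siRNA that targets lncSLCC1 (listed as RP11-400N13.2), a long non-coding RNA, and is called the knockdown group here. Each group was made of 3 libraries from this single line, and the labels name no other treatment, dose or time. Values per library are in the order of replicates 1, 2 and 3. Whether the libraries came from separate cultures is not stated, so each p-value rests only on how far these libraries vary, and that variation may be technical.

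Epithelial cells are joined by several structures along their side walls. Tight junctions at the apical end seal the space between cells with claudins, occludin and junctional adhesion molecules. Below them adherens junctions link cadherins through catenins to actin, and desmosomes link desmosomal cadherins through plakophilins to keratin filaments. Gap junctions pass small molecules between neighbours. The PAR and Crumbs complexes set the position of the tight junction. Loss of E-cadherin is a known mark of epithelial cells that turn mesenchymal.

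The target of the siRNA was lower in every knockdown library than in any control (edgeR log2 fold change -1.88 with SE 0.264, adjusted p = 0.0027), at 27.1% of the control mean. Reads assigned to genes ran from 12572277 to 15568075 per library, and the junction genes took 0.558% to 0.614% of them. The colon epithelial markers KRT8, KRT18, KRT19, KRT20, CDX1, CDX2, VIL1, CDH17, LGALS4 and GPA33 summed to 4680 to 6260 CPM (reads per library scaled to a library of 1000000) in controls and 4840 to 5160 CPM after knockdown. KRT8 alone averaged 3726 and 3330 CPM. VIL1 was called higher, from 17.3 to 31.6 CPM (adjusted p = 0.00618 by edgeR), and the other 7 tested were not called. Of those, CDX2 was below and CDH17 above all controls in every knockdown library. CDX1 and GPA33 averaged under 1 CPM in both groups. Markers of fibroblasts summed to 2.41 to 2.93 and 3.12 to 3.38 CPM, with DCN and LUM at 0 and PDGFRB, from 0.533 to 1.32 CPM, called higher (adjusted p = 0.0448 by edgeR). In bulk RNA, fewer cells of a type and less RNA per cell cannot be told apart. Endothelial markers summed to 6.90 to 9.75 and 5.45 to 6.91 CPM, with PECAM1 and KDR at 0, and blood cell markers to 1.85 to 2.28 and 1.34 to 1.95 CPM, with HBB at 0. Most of the endothelial sum was CLDN5, at 6.13 and 4.47 CPM in the group means (adjusted p = 0.113 by edgeR). CLDN5 is also on the list of other tight junction genes.

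Of the tested junction genes, 4 changed after knockdown, and the median of the list lay near that of all genes. F11R, CLDN4 and ESRP2 fell and TJP3 rose, and the other 34 tested genes, E-cadherin and the catenins among them, did not pass the test. A gene was called when its adjusted p, from edgeR's quasi-likelihood test with Benjamini-Hochberg adjustment over all tested genes, was under 0.05. The 3 genes called lower were 7.89% of the tested junction genes, against 7.39% of all genes. The 1 called higher was 2.63%, against 6.46% of all genes, and the 4 together were 10.5%, against 13.8%. The median log2 fold change was 0.05 over the junction genes and 0.01 over all genes, and 0 junction genes reached a 2-fold difference. The groups did not overlap, with knockdown lower, for 9 junction genes (23.7%, against 19.6% of all genes), and with knockdown higher for 8 (21.1%, against 19.4%). These shares lay near those of all genes. With library totals in place of TMM scaling, the share of higher genes among all calls moved from 46.6% to 63.9%, and 9 junction genes were called, 6 of them higher, which is 23.7% of the junction genes against 14.8% of all genes.

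**Figure D1:**
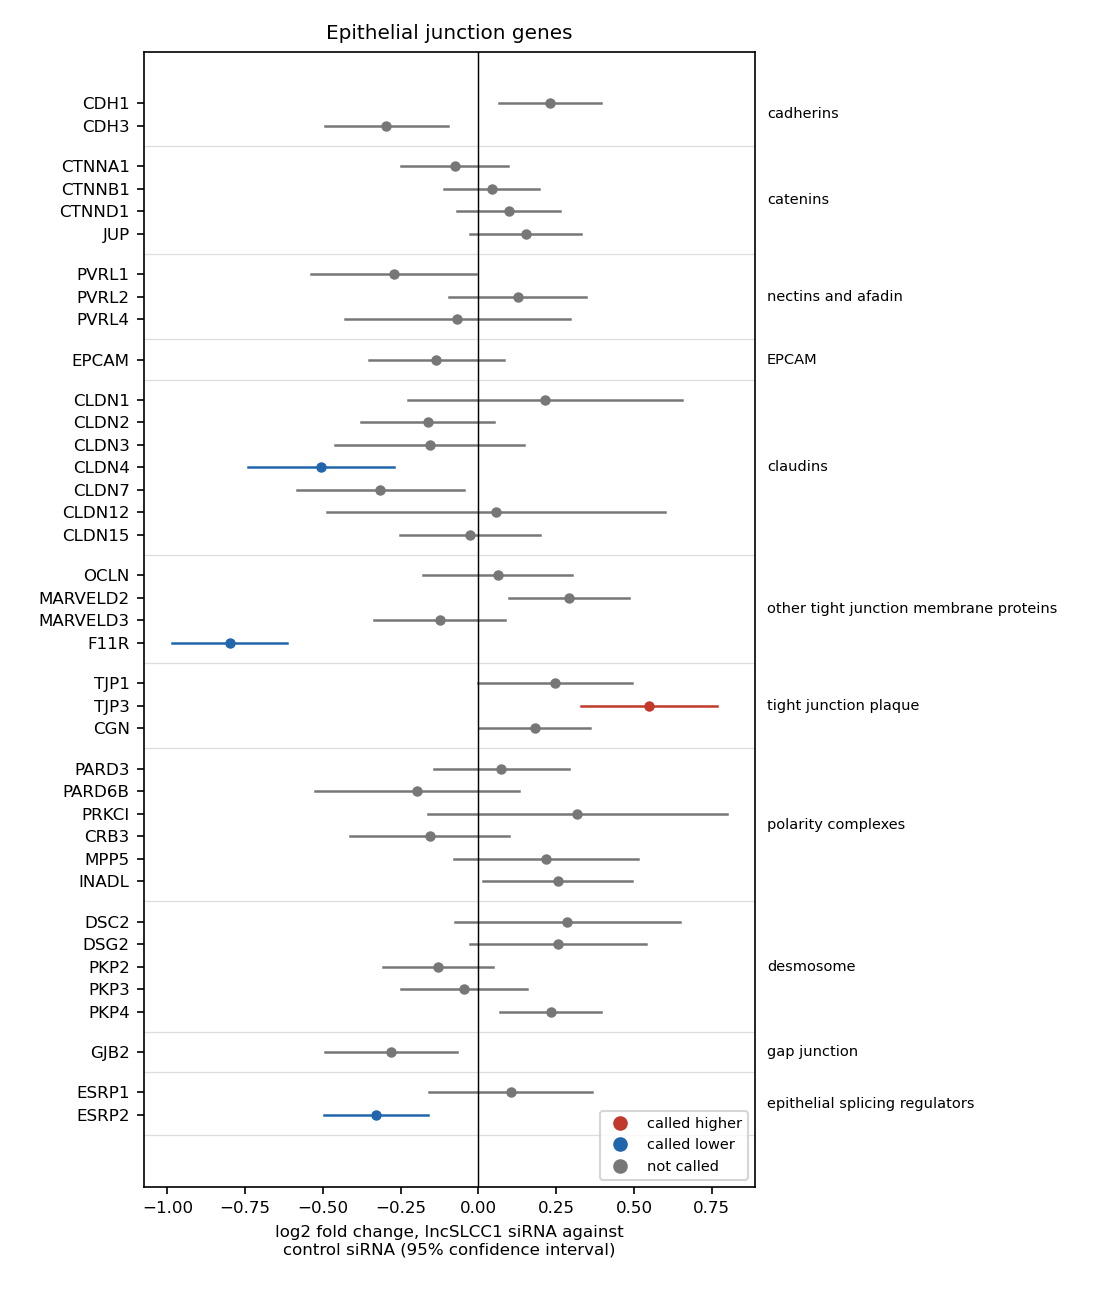
Log2 fold change of each of the 38 tested junction genes, lncSLCC1 siRNA against control siRNA, with its 95% confidence interval, grouped by role. F11R at -0.80, CLDN4 at -0.51 and ESRP2 at -0.33 were called lower and TJP3 at 0.55 higher, and the other 34 genes, in grey, were not called.

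Control replicate 1 stood apart from the other controls in these genes, in a way that followed base composition. It was lower than the mean of control replicates 2 and 3 in 16 of the 19 tested junction genes of lower GC content (38.1% to 47.6% in the longest transcript) and higher in 18 of the 19 of higher GC content (47.8% to 69.2%). The lowest were CLDN12, PRKCI and DSC2, at -1.07, -0.94 and -0.62 on the log2 scale, with GC contents of 38.1%, 39.1% and 38.9%. PVRL4, CLDN7 and CLDN4 were the highest, at 0.41, 0.37 and 0.34, with GC contents of 55.5%, 59.6% and 57.5%. Across the 38 genes, which share the same libraries, Pearson's r was 0.75 and Spearman's rho 0.81, and across 13627 tested genes with a GC value r was 0.63 and rho 0.65. Genes are not independent replicates, and these values are given as a description. The spread between libraries was larger in controls than after knockdown for 35 of the 38 genes, with a median SD of 0.163 against 0.043 in log2 CPM. This was not particular to the junction genes. Over all genes with enough reads, controls also differed more from each other (chi-square per gene 5.97 to 31.2) than knockdown libraries did (1.87 to 1.99).

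**Figure D2:**
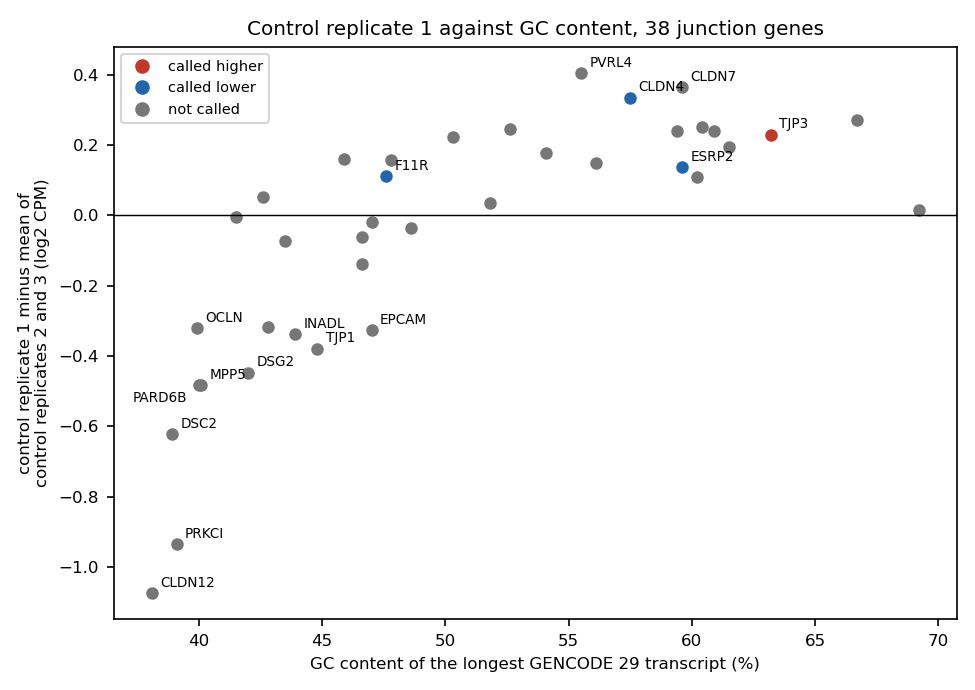
Each point is 1 of the 38 tested junction genes, with the GC content of its longest GENCODE 29 transcript on the x axis and control replicate 1 minus the mean of control replicates 2 and 3, in log2 CPM, on the y axis. CLDN12 lies lowest at -1.07, and genes of GC content above 50% lie above 0.

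The number of junction genes called depended on these controls. Without control replicate 1, 8 were called lower and 7 higher, together 39.5% of the junction genes against 29% of all genes. Without control replicate 3 the counts were 6 and 7 (34.2% against 23.7%). With offsets for GC content and length they were 8 and 10 (47.4% against 29.2%). Beside the 4 genes already called, 5 were called in all 3 of these settings: CDH1, MARVELD2 and PKP4, higher, and CDH3 and GJB2, lower. Leaving out control replicate 2 or knockdown replicate 1, 2 or 3 left 1, 1, 1 and 2 junction genes called, where the shares of all genes called were 3.95%, 3.79%, 3.03% and 2.93%. All of these were among the 4 genes already called, so no other junction gene passed there. A pass given below for a gene with a library left out is to be read beside the shares of all genes.

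Levels per length differed widely between junction genes. EPCAM, an adhesion protein of epithelial cell membranes, was highest at 359 CPM per kilobase of its longest transcript in controls. PKP3, JUP, CDH1 and CTNNA1 followed at 138, 135, 113 and 104 CPM per kilobase. CLDN1 and DSC2 were lowest of the tested genes, at 1.28 and 1.49 CPM per kilobase. The longest annotated transcript may not be the one these cells express, and that of DSC2, at 12.32 kilobases, was the longest of the tested junction genes.

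**Figure D3:**
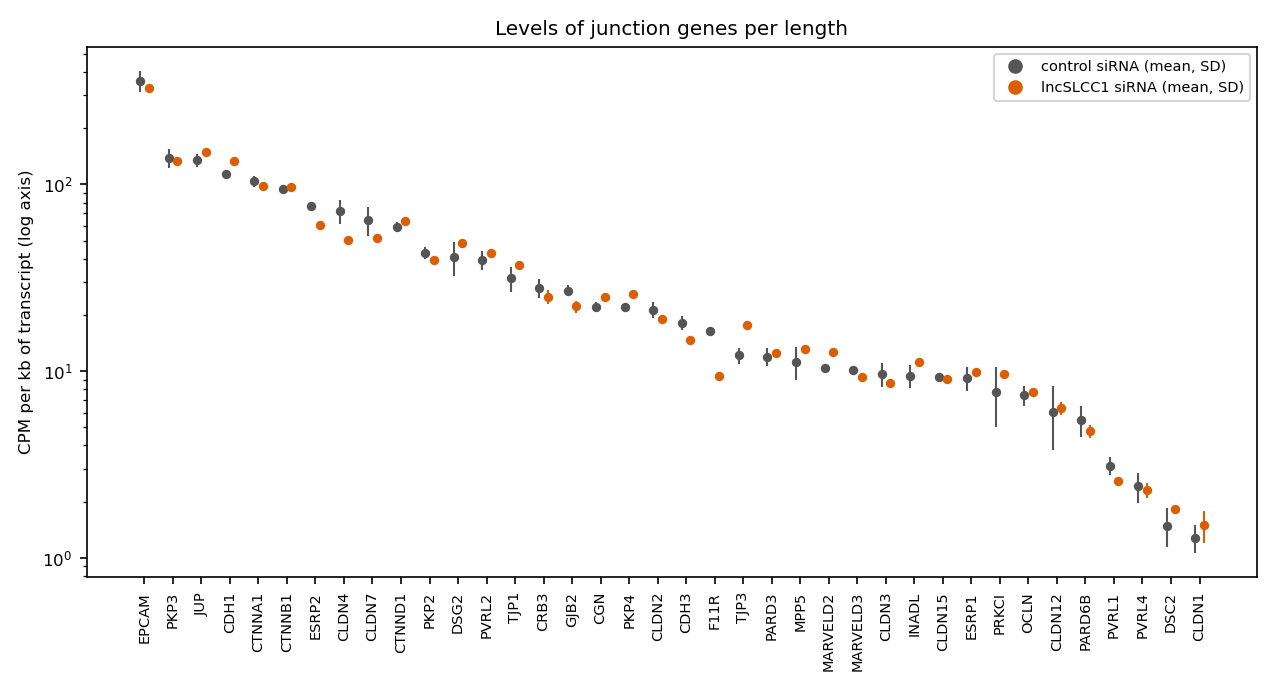
Mean level of the 38 tested junction genes in CPM per kilobase of the longest transcript, on a log axis, with the SD over 3 libraries, ordered by the control mean. Levels run from 359 CPM per kilobase for EPCAM to 1.28 for CLDN1 in controls, and F11R lies at 16.4 in controls and 9.42 after knockdown.

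F11R, which encodes junctional adhesion molecule A, an immunoglobulin-like protein of the tight junction, fell most among the junction genes. It measured 83.5, 77.0 and 77.4 CPM in the controls and 46.0, 45.7 and 44.9 CPM in the knockdown libraries. The groups lay far apart, and libraries within each group differed little. The mean fell from 79.3 ± 3.64 to 45.5 ± 0.570 CPM (SD over 3 libraries each), to 57.4% of the control level. By edgeR this is a log2 fold change of -0.80 with SE 0.083, a 95% confidence interval of -0.99 to -0.62 and an adjusted p of 0.000497. The call held under all 14 alternative settings run, with log2 fold changes of -0.83 to -0.73 and a highest adjusted p of 0.0101, and 159 of the 1126 genes called lower fell further. In GENCODE 29, F11R overlaps 1 other gene on its own strand, and reads of overlapping genes cannot be told apart here.

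Of the relatives of F11R, JAM3 also fell, from 4.402 ± 0.462 to 2.56 ± 0.154 CPM (mean and SD of 3 libraries each; edgeR log2 fold change -0.77 with SE 0.171, adjusted p = 0.0179). JAM2, at 1.63 and 2.05 CPM in the means of the groups, and CXADR, which encodes a related adhesion protein and virus receptor, at 74.5 and 71.4 CPM, missed the threshold (adjusted p = 0.388 and 0.814 by edgeR). JAM3 rested on 31 to 74 reads per library and JAM2 on 23 to 33. The JAM3 call was lost without control replicate 2 or any 1 of the knockdown libraries, with a highest adjusted p of 0.0863.

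The MARVEL family proteins occludin (OCLN), tricellulin (MARVELD2) and MARVELD3 did not pass the test. Tricellulin seals the points where 3 cells meet. MARVELD2 measured 44.0, 45.6 and 46.9 CPM in the controls and 58.5, 53.5 and 55.0 CPM in the knockdown libraries. All 3 knockdown libraries lay above all controls (edgeR log2 fold change 0.29 with SE 0.087, 95% interval 0.10 to 0.48, adjusted p = 0.0518). It passed without control replicate 1 (adjusted p = 0.00768) and without control replicate 3 (0.0386). OCLN, whose gene is the next protein-coding gene after MARVELD2 in the RefSeq order, had overlapping groups at 40.9 to 51.6 CPM in controls and 48.6 to 51.6 CPM after knockdown (log2 fold change 0.06, 95% confidence interval -0.18 to 0.30). MARVELD3 was at -0.13 (95% confidence interval -0.34 to 0.09).

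Among the 7 claudins, the 4-span membrane proteins that form the seals and pores of tight junctions, CLDN4 fell and 6 did not pass the test. CLDN4, a barrier-forming claudin, stood at 346.9, 293 and 258 CPM in the controls and at 218, 208 and 205.5 CPM in the knockdown libraries. The controls were spread widely, yet the lowest of them was above every knockdown library. The mean fell from 299 ± 44.9 to 211 ± 6.80 CPM (mean and SD of 3 libraries each; edgeR log2 fold change -0.51 with SE 0.105, 95% interval -0.74 to -0.27, adjusted p = 0.0144). The log2 fold change was -0.39 without control replicate 1, where the call held (adjusted p = 2.57e-05). It was no longer called without control replicate 2 (adjusted p = 0.063) and without knockdown replicate 1 (0.061), 2 (0.0821) or 3 (0.0816), with log2 fold changes of -0.53, -0.54, -0.50 and -0.49.

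CLDN7 lay in the same direction and did not pass the test. It measured 145, 125 and 102 CPM in the controls and 99.6, 103 and 96.4 CPM in the knockdown libraries, so control replicate 3 lay within the range of the knockdown libraries (edgeR log2 fold change -0.32 with SE 0.120, adjusted p = 0.105). It passed without control replicate 3, at -0.44 (adjusted p = 0.00883). With control replicate 1 left out instead, CLDN7 was at -0.19 and did not pass (adjusted p = 0.0522 by edgeR). The pore-forming CLDN2 was at 67.3 ± 6.85 and 60.1 ± 1.91 CPM (mean and SD of 3 libraries each; log2 fold change -0.16, adjusted p = 0.271 by edgeR), with groups that did not overlap. CLDN3, CLDN12, CLDN15 and CLDN1 had overlapping groups, with edgeR log2 fold changes of -0.16, 0.06, -0.03 and 0.21 (adjusted p from 0.462 to 0.898). CLDN12 turned to -0.23 without control replicate 1, where it stood at 12.2 CPM against 25.5 and 27.3 CPM in the other controls. CLDN1 rested on 57 to 89 reads per library, so a difference of moderate size was not detectable at this depth (95% confidence interval -0.23 to 0.65).

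CLDN3 and CLDN4 are neighbours in the RefSeq order with no protein-coding gene between them, and CLDN4 was the one called. In controls CLDN4 stood at 7.25 ± 1.08 times the per-kilobase level of CLDN3, and after knockdown at 5.63 ± 0.0954 times (SD, n = 3 each). The windows of 300 bases at their starts, 250 bases before to 50 after, are shown since 1 of this pair was called. They are from RefSeq for GRCh38.p14, chr7:73830746-73831045 on the plus strand for CLDN4 and chr7:73770221-73770520 on the minus strand for CLDN3. Capitals mark CAGGTG or its reverse complement CACCTG, the letters of the E-box that the SNAIL and ZEB repressors of epithelial genes are known to bind.
CLDN4: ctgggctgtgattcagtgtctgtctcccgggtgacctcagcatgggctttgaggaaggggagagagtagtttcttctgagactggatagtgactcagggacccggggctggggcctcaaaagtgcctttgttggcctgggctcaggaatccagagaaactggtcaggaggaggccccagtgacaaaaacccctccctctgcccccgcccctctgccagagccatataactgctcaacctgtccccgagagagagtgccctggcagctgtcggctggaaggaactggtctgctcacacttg
CLDN3: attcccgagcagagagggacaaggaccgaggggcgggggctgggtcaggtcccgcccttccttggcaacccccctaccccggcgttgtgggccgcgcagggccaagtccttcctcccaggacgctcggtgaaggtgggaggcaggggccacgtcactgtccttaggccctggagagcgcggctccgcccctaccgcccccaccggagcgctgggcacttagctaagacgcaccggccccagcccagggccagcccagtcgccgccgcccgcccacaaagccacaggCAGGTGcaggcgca
The CLDN4 window holds no such run, and that of CLDN3 holds 1.

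Of the 40 genes, 27 had a RefSeq promoter window, and 11 of these held CAGGTG on either strand, against 20.6% of all 27305 windows of the same length. F11R, ESRP2 and CDH1 were among the genes without a window. The grainyhead-type run AACCGGTT was in 0 of the 27, against 0.117% of all windows. A match is a run of letters and was not tested as a binding site. CRB3, which encodes the Crumbs membrane protein of the apical side, held the most CAGGTG runs, with 5, and its window is shown for that reason (RefSeq, GRCh38.p14, chr19:6464021-6464320, plus strand, capitals as before).
CRB3: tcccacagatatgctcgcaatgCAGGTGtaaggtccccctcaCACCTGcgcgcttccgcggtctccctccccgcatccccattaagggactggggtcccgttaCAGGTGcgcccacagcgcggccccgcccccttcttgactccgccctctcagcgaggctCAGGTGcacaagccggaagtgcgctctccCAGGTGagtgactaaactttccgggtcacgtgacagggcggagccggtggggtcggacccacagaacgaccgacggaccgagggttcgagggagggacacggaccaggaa
CRB3 itself did not pass the test, at 40.2 ± 4.63 CPM in controls and 36.1 ± 3.06 CPM after knockdown (mean and SD of 3 libraries each; log2 fold change -0.16, adjusted p = 0.38 by edgeR). Of the repressors, SNAI1 was at 5.61 ± 1.11 and 3.76 ± 0.486 CPM and did not pass (log2 fold change -0.57, adjusted p = 0.0741 by edgeR), and SNAI2, ZEB1 and ZEB2 had means under 1 CPM in both groups.

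TJP3 was the junction gene that rose. It encodes ZO-3, a scaffold protein that ties tight junction membrane proteins to actin. TJP3 measured 45.1, 37.9 and 39.0 CPM in the controls and 62.0, 59.5 and 57.0 CPM in the knockdown libraries. The groups were apart, with control replicate 1 the closest to the knockdown libraries. The mean rose from 40.7 ± 3.91 to 59.5 ± 2.51 CPM (SD, n = 3 each), 146% of the control level (edgeR log2 fold change 0.55 with SE 0.098, 95% interval 0.33 to 0.77, adjusted p = 0.00773). It was no longer called without control replicate 2 (adjusted p = 0.0561) and without knockdown replicate 1 or 2 (0.0569 each), with log2 fold changes of 0.50, 0.52 and 0.55. Its RefSeq promoter window is shown as that of the gene that rose (GRCh38.p14, chr19:3708134-3708433, plus strand), and it holds no CAGGTG or CACCTG.
TJP3: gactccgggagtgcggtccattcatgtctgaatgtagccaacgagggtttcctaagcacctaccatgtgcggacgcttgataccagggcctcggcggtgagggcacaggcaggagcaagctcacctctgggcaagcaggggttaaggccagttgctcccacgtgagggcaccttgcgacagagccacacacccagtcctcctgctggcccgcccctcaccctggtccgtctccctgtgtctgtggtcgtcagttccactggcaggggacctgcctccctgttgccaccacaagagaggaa

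The other scaffold genes of the tight junction plaque lay in the same direction and did not pass. TJP1, which encodes ZO-1, stood at 208, 256 and 285 CPM in the controls and at 289, 313 and 286 CPM in the knockdown libraries (edgeR log2 fold change 0.25 with SE 0.111, adjusted p = 0.16). The groups were apart by a small margin, and control replicate 1 was far below the others. TJP1 passed without control replicate 3, at 0.35 (adjusted p = 0.0303). With control replicate 1 left out instead, TJP1 did not pass. Its log2 fold changes over the 14 alternative settings ran from 0.13 to 0.35. CGN, which encodes the plaque protein cingulin, went from 112 ± 6.90 to 127 ± 3.75 CPM (mean and SD of 3 libraries each; log2 fold change 0.18, adjusted p = 0.152 by edgeR), and it passed without control replicate 1 (adjusted p = 0.00474).

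**Figure D4:**
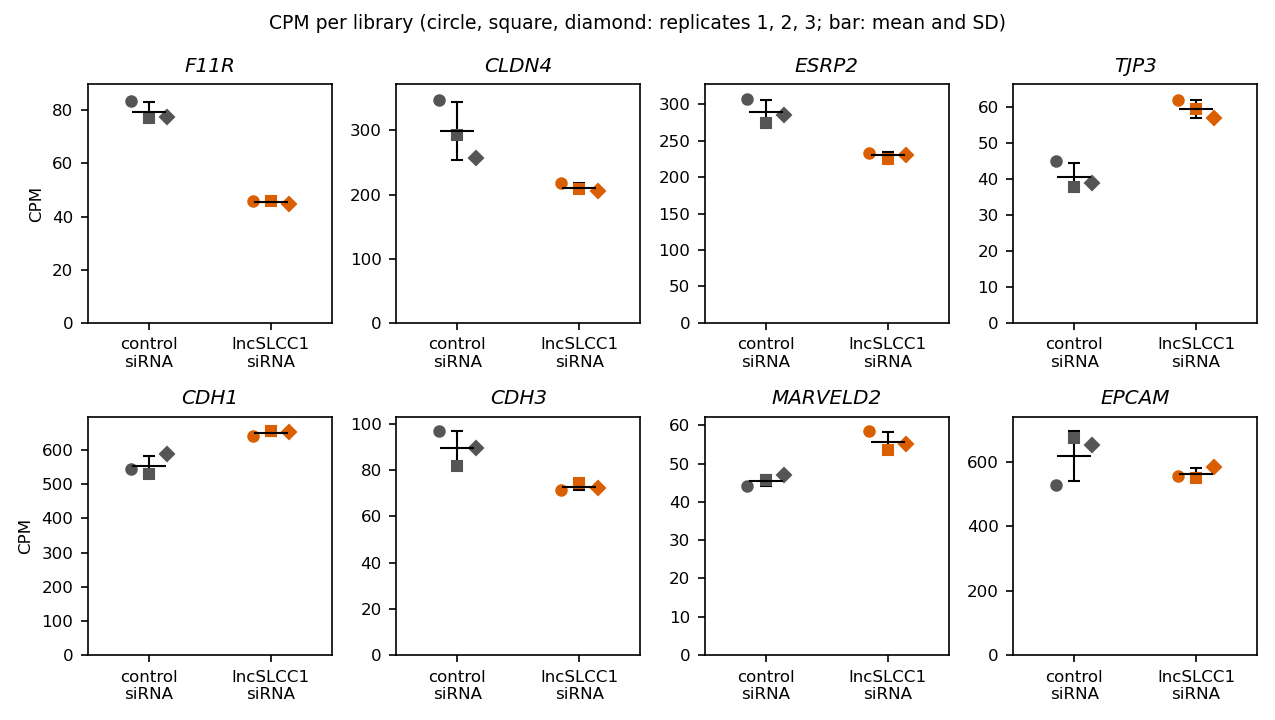
CPM of 8 junction genes in each library, with the mean and SD of each group of 3, on axes that start at 0. F11R, CLDN4 and ESRP2 lie lower and TJP3 higher in all knockdown libraries; CDH1, CDH3 and MARVELD2 are also apart by group without passing the test, and the groups of EPCAM overlap.

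The classical cadherins lay in opposite directions and neither passed the test. CDH1 encodes E-cadherin, the main cadherin of epithelial adherens junctions. It measured 545, 530.4 and 588 CPM in the controls and 641, 656 and 654 CPM in the knockdown libraries. All knockdown libraries were above all controls (edgeR log2 fold change 0.23 with SE 0.073, 95% interval 0.07 to 0.39, adjusted p = 0.0619). CDH3, which encodes P-cadherin, stood at 96.9, 81.8 and 89.5 CPM in the controls and at 71.5, 74.5 and 72.4 CPM in the knockdown libraries. Here all knockdown libraries were below all controls (edgeR log2 fold change -0.30 with SE 0.088, 95% interval -0.49 to -0.10, adjusted p = 0.0518). Without control replicate 1 both passed (adjusted p = 0.00351 for CDH1 and 0.00801 for CDH3), as they did without control replicate 3 (0.0239 and 0.0463). Neither passed without control replicate 2 or any 1 knockdown library (highest adjusted p by edgeR 0.237 for CDH1 and 0.186 for CDH3). Each was called in 5 of the 14 alternative settings.

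The genes CDH3 and CDH1 are next to each other in the RefSeq order. The log2 ratio of CDH3 to CDH1 within a library was -2.49, -2.69 and -2.71 in the controls and -3.16, -3.13 and -3.17 in the knockdown libraries. On a per-kilobase scale, P-cadherin RNA went from 0.161 ± 0.0141 to 0.112 ± 0.00148 of the E-cadherin level (SD, n = 3 each). This ratio needs no scaling between libraries, and its groups lay apart by more than the spread within either. The exact two-sided permutation test over libraries gave p = 0.1, the smallest that 3 against 3 libraries allow.

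The catenins, which link cadherins to actin, had no member that passed. CTNNB1 encodes beta-catenin, which is also the effector of Wnt signalling, and was at 448 ± 10.8 CPM in controls and 461 ± 8.44 CPM after knockdown (mean and SD of 3 libraries each; log2 fold change 0.04, 95% confidence interval -0.11 to 0.20). CTNNA1, for alpha-catenin, was at -0.08 (95% confidence interval -0.25 to 0.10) and CTNND1, for p120-catenin, at 0.10 (-0.07 to 0.26). JUP encodes plakoglobin, a catenin shared by adherens junctions and desmosomes. It measured 516, 453 and 449 CPM in the controls and 533, 529 and 512 CPM in the knockdown libraries, where control replicate 1 lay within the other group (edgeR log2 fold change 0.15 with SE 0.079, adjusted p = 0.22). It passed without control replicate 1 (adjusted p = 0.00204, log2 fold change 0.22).

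The nectins are immunoglobulin-like adhesion proteins that start adherens junctions and bind afadin. PVRL1, for nectin-1, stood at 20.4, 17.1 and 17.1 CPM in the controls and at 14.8, 16.0 and 14.3 CPM in the knockdown libraries (edgeR log2 fold change -0.27 with SE 0.119, adjusted p = 0.147). The groups were apart by about 1 CPM. PVRL2 and PVRL4 had overlapping groups, at log2 fold changes of 0.13 and -0.07 (adjusted p = 0.409 and 0.808 by edgeR). PVRL2 passed without control replicate 1 (log2 fold change 0.21, adjusted p = 0.0212). RefSeq gives MLLT4 as an older symbol of AFDN, and the count tables list MLLT4 at 119 ± 17.4 and 138 ± 6.52 CPM (mean and SD of 3 libraries each; log2 fold change 0.21, adjusted p = 0.207 by edgeR).

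EPCAM had overlapping groups. It measured 529.7, 675 and 654 CPM in the controls and 557, 549 and 585 CPM in the knockdown libraries. Control replicate 1 was the lowest of all 6 libraries, and the other controls were the highest (edgeR log2 fold change -0.14 with SE 0.097, adjusted p = 0.37). Without control replicate 1 the log2 fold change was -0.24 (adjusted p = 0.000932 by edgeR).

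None of the 6 polarity genes passed the test. PARD3, PARD6B and PRKCI, for the scaffold, adaptor and kinase of the PAR complex, were at log2 fold changes of 0.07, -0.20 and 0.32 (adjusted p = 0.642, 0.388 and 0.341 by edgeR). PRKCI stood at 23.6 CPM in control replicate 1 and at 41.3 to 50.4 CPM in the other 5 libraries, and its log2 fold change went to 0.06 without that control. PARD6B passed without it, at -0.34 (adjusted p = 0.00716). INADL, which encodes the PATJ scaffold of the Crumbs complex, stood at 69.8, 84.2 and 92.7 CPM in the controls and at 94.99, 102 and 97.5 CPM in the knockdown libraries. The groups were just apart (edgeR log2 fold change 0.26 with SE 0.107, adjusted p = 0.135), and INADL passed without control replicate 3 (adjusted p = 0.0317). With control replicate 1 left out instead, INADL did not pass. Its log2 fold changes over the 14 alternative settings ran from 0.15 to 0.35. MPP5, which encodes PALS1, the link between Crumbs and PATJ, was at 0.22 (adjusted p = 0.291 by edgeR), and its ratio to INADL had overlapping groups.

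No desmosomal gene of the list passed. PKP4, for a plakophilin found at desmosomes and adherens junctions, stood at 126, 124 and 131 CPM in the controls and at 146, 149.9 and 151.5 CPM in the knockdown libraries. Its groups did not overlap and varied little (edgeR log2 fold change 0.23 with SE 0.073, 95% interval 0.07 to 0.39, adjusted p = 0.0604). It passed without control replicate 1 (adjusted p = 0.0057) or 3 (0.0373). The desmosomal cadherins DSG2 and DSC2 were at 0.26 and 0.29 (adjusted p = 0.196 and 0.254 by edgeR), with control replicate 1 the lowest library for both. Without control replicate 3 DSG2 passed, at 0.41 (adjusted p = 0.0152). With control replicate 1 left out instead, DSG2 was at 0.12 and did not pass (adjusted p = 0.18 by edgeR). PKP2 and PKP3, plakophilins of the desmosomal plaque, were at -0.13 and -0.05 (adjusted p = 0.286 and 0.763 by edgeR), and PKP2 passed without control replicate 1, at -0.18 (adjusted p = 0.0233).

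Of the gap junction genes, GJB2, which encodes connexin 26, stood at 68.6, 62.4 and 60.2 CPM in the controls and at 56.7, 51.2 and 49.4 CPM in the knockdown libraries. The groups were apart, but the test was not passed (edgeR log2 fold change -0.28 with SE 0.095, 95% interval -0.49 to -0.07, adjusted p = 0.0761). It did without control replicate 1 (adjusted p = 0.0222) or 3 (0.0403). GJB1, for connexin 32, had 1 read in control replicate 1 and 0 in the other libraries, so no difference was detectable at this depth.

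ESRP2 fell and ESRP1 did not pass the test. Both encode RNA-binding proteins that keep the epithelial splice forms of their target transcripts, and counts per gene do not show splice forms. ESRP2 measured 308, 275 and 285 CPM in the controls and 234, 225 and 231 CPM in the knockdown libraries. All knockdown libraries were below all controls. The mean fell from 289 ± 16.9 to 230.1 ± 4.30 CPM (SD over 3 libraries each), to 79.6% of the control level (edgeR log2 fold change -0.33 with SE 0.075, 95% interval -0.50 to -0.16, adjusted p = 0.0197). It was no longer called without control replicate 2 (adjusted p = 0.0556) and without knockdown replicate 1 (0.0951), 2 (0.124) or 3 (0.107), with log2 fold changes of -0.37, -0.34, -0.32 and -0.33. In GENCODE 29, ESRP2 overlaps 3 other genes on its own strand and NFATC3 on the opposite strand, and the strand setting of the counting is not given. ESRP1 was at 35.0 ± 5.13 and 37.7 ± 1.28 CPM (log2 fold change 0.10, adjusted p = 0.58 by edgeR). In controls ESRP2 was at 8.34 ± 1.70 times the per-kilobase level of ESRP1, and after knockdown at 6.07 ± 0.315 times (SD, n = 3 each). The log2 ratio of ESRP2 to ESRP1 was 3.34 in control replicate 1, against 2.76 and 3.01 in the other controls. GC contents were 59.6% for ESRP2 and 42.8% for ESRP1, and a part of GC content in this ratio was not tested.

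Ratios within a library were computed for 15 fixed pairs of partner genes, which removes differences in scaling between libraries. A trend with GC content, such as that in control replicate 1, is not removed where partners differ in GC content. The groups did not overlap for 6 of the 15, against 44.2% of all 703 pairs of tested junction genes, so this count is near that of any pair from the list. Among the 6 was GJB2 to GJB1, where GJB1 had 1 read in control replicate 1 and 0 reads elsewhere. The other 5 were CDH3 to CDH1, PVRL1 to PVRL2, CLDN4 to CLDN3, CLDN2 to CLDN15 and ESRP2 to ESRP1, all lower after knockdown, with differences of -0.52, -0.40, -0.36, -0.13 and -0.44 on the log2 scale. Each had p = 0.1 by the exact permutation test and 0.25 after Benjamini-Hochberg adjustment over the 15 pairs. The groups overlapped for TJP3 to TJP1, which was at -2.19 in control replicate 1 and between -2.39 and -2.21 after knockdown, and for DSC2 to DSG2, PKP3 to PKP2 and MPP5 to INADL, with differences of 0.04, 0.09 and -0.03.

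**Figure D5:**
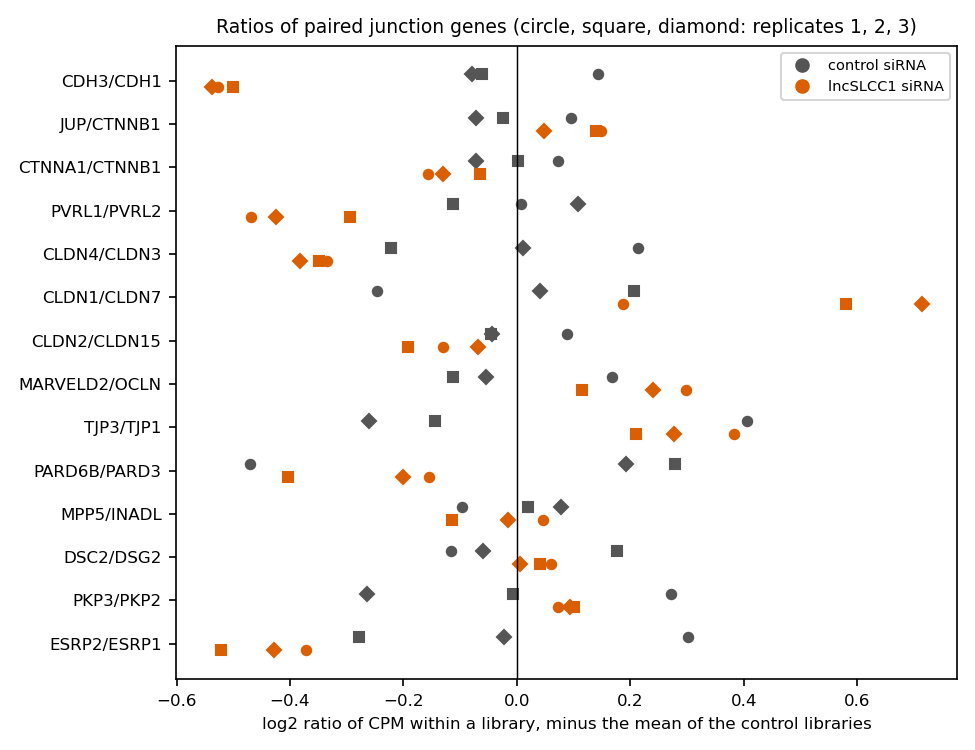
Log2 ratio of CPM of 14 pairs of junction genes within each library, minus the mean of the 3 control libraries for that pair. The knockdown libraries lie below all controls for CDH3/CDH1, PVRL1/PVRL2, CLDN4/CLDN3, CLDN2/CLDN15 and ESRP2/ESRP1, and the controls are more scattered in most pairs.

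Other genes of the same structures, on 7 lists of 129 genes set by function, gave 7 calls higher and 11 lower among 95 tested (median log2 fold change -0.05). These were 7.37% and 11.6% of the tested genes, against 6.46% and 7.39% of all genes, and the count of each list reads against the latter shares. In the other adherens junction genes 3 of 14 (21.4%) fell and 0 rose. These were EPHA2, an ephrin receptor gene, from 209 ± 4.82 to 148 ± 5.77 CPM (mean and SD of 3 libraries each; edgeR log2 fold change -0.50 with SE 0.073, adjusted p = 0.00304), VCL, for the actin-binding protein vinculin, at -0.41 (SE 0.077), and PVR, a nectin-like receptor gene, at -0.32 (SE 0.090). Among the other tight junction genes 4 of 21 (19%) fell and 2 (9.52%) rose. Beside JAM3, TRAF4 fell by 0.41 (SE 0.083), TBCD, a tubulin-folding gene, by 0.33 (SE 0.082) and CLDN9 by 0.56 (SE 0.159) on the log2 scale. The risers were the scaffold gene MAGI3 at 0.62 (SE 0.129) and AMOT, for angiomotin, at 0.82 (SE 0.170).

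In the polarity list 2 of 20 (10%) rose and 0 fell, DLG5 from 99.3 ± 15.2 to 152 ± 5.55 CPM (mean and SD of 3 libraries each; edgeR log2 fold change 0.62 with SE 0.108, adjusted p = 0.00738) and PARD3B, a relative of PARD3, at 0.57 (SE 0.131). In the desmosome and hemidesmosome list 2 of 8 (25%) rose and 0 fell. These were PERP, for a desmosomal membrane protein, from 789 ± 163 to 1260 ± 57.5 CPM (edgeR log2 fold change 0.68 with SE 0.136, adjusted p = 0.0124), and PPL, for periplakin, at 0.42 (SE 0.078). DSP, which encodes the keratin-linking plaque protein desmoplakin, was at 0.21 (adjusted p = 0.168 by edgeR). Of 6 other gap junction genes PANX2 rose by 0.71 (SE 0.123) on the log2 scale.

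Among 18 epithelial transcription factor and membrane genes 2 (11.1%) fell and 0 rose, KLF4, a transcription factor gene, at -0.37 (SE 0.090) and AP1M2, for a sorting adaptor of epithelial cells, at -0.35 (SE 0.0999). GRHL2, a regulator of junction genes, was at -0.09 (adjusted p = 0.459 by edgeR). Of 18 mesenchymal and repressor genes 8 had enough reads to be tested, and LEF1, a Wnt transcription factor gene, fell by 0.34 (SE 0.082) on the log2 scale. VIM, for vimentin, averaged 0.294 and 0.391 CPM and was not tested, and the N-cadherin gene CDH2 averaged 0.872 and 1.04 CPM (adjusted p = 0.612 by edgeR). EPHA2 kept its call under all 14 alternatives. Leaving out control replicate 2 or knockdown replicate 1, 2 or 3 ended 14, 14, 15 and 17 of these 18 calls, and CLDN9 held in 3 of 14 settings.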

How the data were processed

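Total RNA of 6 DLD-1 libraries was sequenced, 3 per group. For every library the authors deposited a table of raw counts, 1 row per gene symbol. The submitters' processing notes name TopHat2 2.0.11 and HTSeq with builds hg19 and GRCh37; neither the strand setting nor the annotation release is given in the sources used here. HTSeq's summary lines were left out; 5.42% to 7.58% of all entries per library had no feature, 8.83% to 10.1% were ambiguous and 12.8% to 13.8% aligned more than once.

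Groups came from the labels. edgeR 4.0.16 (R 4.3.3) fitted its quasi-likelihood test over all 6 libraries with TMM scaling, its default filter on low counts and no covariates, and p-values were adjusted over all 15242 tested genes. CPM used TMM library sizes. A standard error is the log2 fold change divided by the root of its F value. Ratios used a pseudocount of 0.5 CPM. Length and GC content were those of the longest GENCODE 29 transcript, found for 89.4% of tested genes and all tested junction genes; promoters were RefSeq's. Alternatives were DESeq2 1.42.0 and its size factors, limma-voom (limma 3.58.1), library totals, other expression filters, the replicate block, offsets for GC content and length, and leaving out each library in turn. The members and lists were chosen with earlier results of these data known. Named were all junction genes, and from each other list up to 4 called genes in each direction with the smallest p; relatives, repressors and marker genes given beside them were added after values were seen. No libraries of a group agreed within sampling noise. Chi-square per gene was 5.97 to 31.2 between controls and 1.87 to 1.99 between knockdown libraries. In a simulation of the knockdown comparison with 15009 genes tested, 51 of 100 genes changed 1.5-fold and 83 of 100 changed 2-fold were recovered, with 6 false calls. The simulation gave all genes in both groups the same dispersion and held no GC trend in control replicate 1. Its recovery and false calls therefore need not hold for the real libraries. A few genes of the other lists are not reported here.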

Additional observations from a re-analysis of the deposited data

How the results depend on the processing

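F11R was called lower under all 14 alternatives, and CLDN4, ESRP2 and TJP3 under all that kept the 6 libraries. Junction genes called higher numbered 6 by library totals, 10 by GC content and length offsets, 3 without a low-count filter and 2 where the mean was at least 1 CPM, and those called lower 5 without that filter and 8 with the offsets. Leaving out each library gave 1 to 8 lower and 0 to 7 higher. The median log2 fold change of junction genes was 0.115 with library totals, 0.017 with the offsets and 0.005 to 0.057 with a library left out. Over all genes 1600 were higher without that filter, and 2346 were lower and 2098 higher with the offsets; leaving out a library gave 244 to 2431 lower and 213 to 2112 higher. The number of pairs with groups apart, 6 of 15 with all libraries, was 7 to 11 with a library left out. Fewer libraries can only keep or raise this count, and the share over all pairs of junction genes is given for all libraries only. No junction gene that was called changed sign. Uncalled genes that did were CLDN12 (-0.035 with the offsets, -0.227 to 0.25 with a library left out), CLDN15 (0.042 with library totals, 0.069 with the offsets, -0.058 to 0.009 with a library left out), CLDN3 (0.016), CTNNB1 (-0.023) and OCLN (-0.045) with the offsets, OCLN (-0.038 to 0.118) and PARD3 (-0.011 to 0.149) with a library left out, PKP3 (0.027 with library totals, 0.018 with the offsets, -0.121 to 0.048 with a library left out) and PVRL4 (0.004 with library totals, -0.183 to 0.081 with a library left out, 0.006 without knockdown replicate 2). The cause was not tested. With the replicate block 1059 genes were lower and 993 higher, and 3 and 1 junction genes. Same-numbered libraries had correlations of 0.094, 0.001 and -0.016 in their deviations from the group mean. The libraries numbered 1 correlated best with each other, but not every library correlated best with its own number. Deviations within groups this small cannot show whether same-numbered libraries shared a culture or batch, and the labels do not say. A control or knockdown library left out leaves fewer libraries to estimate the spread. Depth limits CLDN1, JAM2, CDH2 and GJB1, among others.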
